A study of Mus musculus with 7 samples.

Results

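The genes described here encode the pancreatic polypeptide family, the ligands Ppy, Pyy, and Npy, and their receptors Npy1r, Npy2r, and Npy5r. Chromatin accessibility at these 6 genes was taken from the ATAC-Seq peaks of alpha, beta, and delta cells that overlap a gene body or the 20 kb on each side of it. Of 1190565 distinct peaks in 7 lists, 160 fell in these windows. At the TSS, Npy1r had a peak in all 7 libraries, Npy2r in 6, Npy5r and Pyy in 5, Npy in 4, and Ppy in none. In the comparison of the cell types, no member passed an adjusted p of 0.05 over all genes, and neither did any other gene. With 7 libraries the exact permutation test cannot go below p = 0.00952. An adjusted 0.05 over 21938 genes was therefore hard to reach, and the result does not show that the cell types are alike.

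ATAC-Seq marks open chromatin through the cuts of the Tn5 transposase. Cells were FACS-sorted from islets of healthy triple transgenic mice that all carried mIns1-H2b-mCherry and Rosa-LSL-YFP, with either Sst-Cre or Gcg-Cre. In these mice an Ins1 promoter drives nuclear mCherry in beta cells, and a Cre driven by the somatostatin or the glucagon gene turns on YFP in delta or alpha cells. Mice were pooled by sex, so a library is a pool and not 1 animal, and their age is not given in the sources used here. There were 2 alpha, 3 beta, and 2 delta libraries, and pancreatic polypeptide cells were not among the sorted types.

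Pancreatic polypeptide, peptide YY, and neuropeptide Y are related amidated peptides. Pancreatic polypeptide comes from a rare endocrine cell type of the islet, peptide YY from enteroendocrine cells of the gut and from islet cells, and neuropeptide Y mainly from neurons, including the sympathetic nerves that reach the islet. Their receptors couple to G proteins of the Gi/Go class and lower cAMP. In islets the Npy1r receptor is known for restraining insulin secretion.

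The lists differed in length and in strength. They held 131151 and 111961 distinct peaks in the alpha libraries, 518503, 91089, and 103935 in the beta libraries, and 158066 and 75860 in the delta libraries. A −log10 q of at least 2, the adjusted significance that MACS2 gives each peak, was reached by 39.7% and 43.8% of the alpha peaks, 5.0%, 35.2%, and 36.6% of the beta peaks, and 29.8% and 54.9% of the delta peaks. Beta 1 thus stood apart by its many weak peaks. The lists hold no reads, so a missing peak is not evidence of closed chromatin and no detection limit can be given. The file names of all 3 beta lists name a cell type that differs from the label, and the label was followed. The list names also carry a lane number, 6 for both alpha libraries and beta 1, and 7 for beta 2, beta 3, and both delta libraries, so that alpha and delta cells cannot be told apart from lane. They cannot be told apart from the Cre line of the mice either.

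Marker genes were read at the TSS to check the labels. Gcg, which encodes glucagon, had a peak in both alpha libraries, with percentiles of 94.1 and 91.6, and a weaker one in delta 2, with 47.1. No beta library had one. A percentile is the rank of a peak by −log10 p in its own list, and 0 stands for no peak. Sst, which encodes somatostatin, had weak peaks in both delta libraries, at 17.1 and 14.4, and a stronger one in beta 1, at 95.5. Ins1, whose promoter is also part of the reporter, had a peak in all 7 libraries, with 98.7, 41.7, and 86.7 in beta cells, 21.2 and 53.3 in alpha cells, and 77.2 and 13.9 in delta cells. Beta 2 thus ranked below alpha 2 and delta 1 at this gene. Ins2 had 1 peak in beta 3 alone. The paper, from normalized signal, reports accessibility at Ins2 that went with its expression in beta cells. Only a single annotated start of Ins2 was read here. The missing peaks in beta 1 and beta 2 therefore do not show a closed Ins2 promoter, and other starts of this gene were not tested. The other delta markers, Hhex, Rbp4, and Ghsr, had a peak in all 4 alpha and delta libraries. Hhex and Ghsr also had one in beta 1, at 48.1 and 90.9, so 3 of 4 delta markers were open in beta 1 and 0 in beta 2 and beta 3. Of all protein-coding genes, 69.7% had a TSS peak in beta 1, 48.9% in beta 2, and 56.8% in beta 3. By the labels, 4 of 4 alpha markers were open in at least 2 alpha libraries, 4 of 5 beta markers in at least 2 beta libraries, and 4 of 4 delta markers in at least 2 delta libraries. The alpha markers were also open in 3 of 4 cases in delta cells and 2 of 4 in beta cells, the delta markers in 3 of 4 cases in alpha cells and 0 of 4 in beta cells, and the beta markers in 4 of 5 cases in either other type, so that the TSS peaks separated the types only in part. Of the markers of other cells, 7 had no TSS peak in any library, namely Ghrl (epsilon), Cpa1 and Cela2a (acinar), Krt19 (duct), Ptprc and Cd3e (immune), and Cdh5 (endothelial). The immune marker Cd68 had a peak in beta 1, at 48.1, and the endothelial marker Pecam1 in alpha 2, at 36.6. Peaks past a −log10 q of 2 occurred for Cftr, Kdr, and Pdgfrb, markers of duct, endothelial, and stellate cells. Duct genes were led by Cftr, with a peak in all 7 libraries, and of 3 duct genes 1 was open in each library and 2 in delta 2. Of 4 acinar genes, 1 and 2 had a peak in the alpha libraries and 1 in beta 1, none past that threshold, and both stellate genes had peaks in the alpha libraries and delta 1, and Pdgfrb also in beta 1 and delta 2. The part of such cells in the results was not tested.

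**Figure D1:**
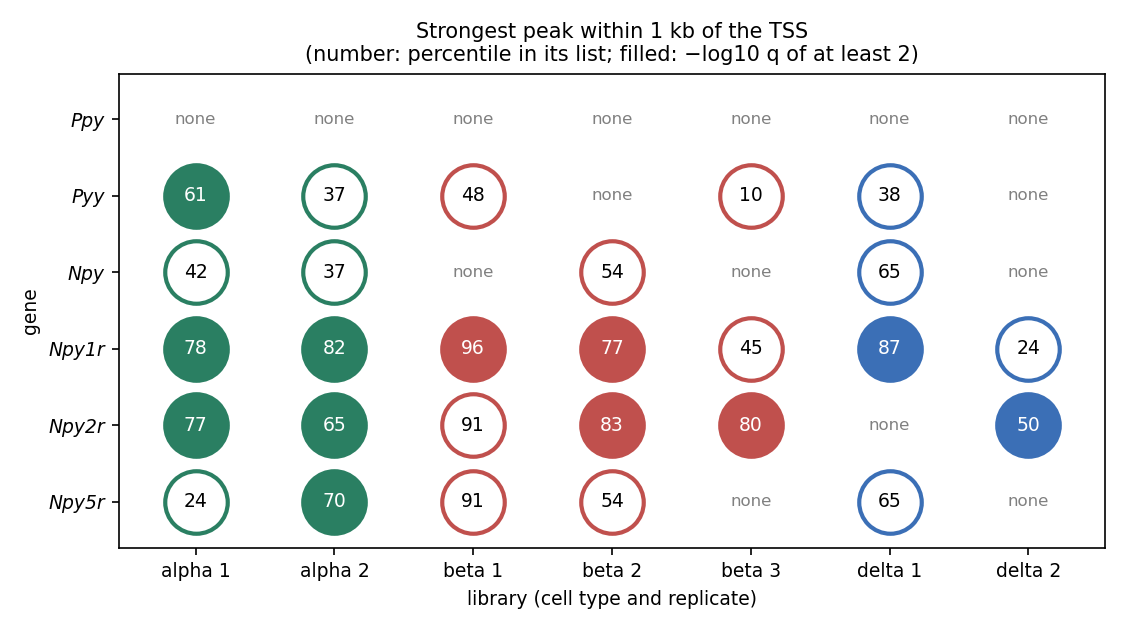
Strongest peak within 1 kb of the TSS for 6 genes (rows) in 7 libraries (columns). The number in a circle is the percentile of the peak by −log10 p in its list, filled circles have a −log10 q of at least 2, and colours mark the cell types. Npy1r has a peak in every library and Ppy in none.

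Npy1r, the receptor best known from beta cells, lies at chr8:66697192-66706792 on the plus strand (ENSMUSG00000036437.6, mm10). Its TSS peak ranked at percentiles 77.6 and 81.9 in alpha cells, 95.5, 76.9, and 45.3 in beta cells, and 87.5 and 24.1 in delta cells. The fold enrichment at the summit over the local background was 5.0 and 6.60 in alpha cells, 3.57, 4.24, and 3.21 in beta cells, and 7.14 and 3.33 in delta cells. The peak reached a −log10 q of 2 in 5 libraries and missed it in beta 3, at 1.43, and delta 2, at 1.93. High and low values thus occurred within the beta and the delta libraries, and the ranges of the 3 cell types overlapped. Means were 79.7 ± 3.01 in alpha cells (SD, n = 2), 72.6 ± 25.4 in beta cells (n = 3), and 55.8 ± 44.8 in delta cells (n = 2). A TSS peak in all 7 libraries was found for 41.5% of 21938 protein-coding genes, so that this presence is common.

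The promoter of Npy1r is shown because all 7 libraries had a peak in it. The 250 bases before the TSS, chr8:66696942-66697191 on the plus strand of GRCm38.p6 (RefSeq), are written with the 112 bases under a peak of every library in capitals.
Npy1r promoter: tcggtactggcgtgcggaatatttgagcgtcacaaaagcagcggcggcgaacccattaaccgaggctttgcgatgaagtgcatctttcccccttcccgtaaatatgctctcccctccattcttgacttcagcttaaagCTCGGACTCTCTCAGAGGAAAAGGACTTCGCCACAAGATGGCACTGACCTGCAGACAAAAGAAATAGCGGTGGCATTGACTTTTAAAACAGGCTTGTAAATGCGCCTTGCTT
These capitals run to the last base before the TSS, and the merged region of the peaks, chr8:66696942-66697306, continues into the first exon. None of 9 motifs searched on both strands matched in this window.

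By the mean percentile over the 7 libraries, the highest region in the Npy1r window was not the promoter, at 69.8, but a distal one, at 82.3. The promoter ranked above it in alpha 1, beta 2, and delta 1. This intergenic region at chr8:66724019-66724562, 27098 bp beyond the TSS in the direction of transcription, was the only open region of the 6 windows with a −log10 q of at least 2 in all 7 libraries, where open means a peak in at least 2 libraries. It ranked at 69.8 and 88.9 in alpha cells, 97.2, 67.9, and 87.0 in beta cells, and 86.9 and 78.4 in delta cells. Fold enrichment was 3.95 and 9.46 in alpha cells, 4.84, 3.97, and 6.52 in beta cells, and 7.05 and 7.14 in delta cells. The lowest and the highest fold both came from alpha cells, so the cell types overlapped. Of all 133698 open regions, 13.3% had a peak in all 7 libraries, and 3 of the 23 in the windows did. From this region, the 300 bases chr8:66724179-66724478 on the plus strand lay under a peak of every library and are in capitals throughout.
Npy1r distal region: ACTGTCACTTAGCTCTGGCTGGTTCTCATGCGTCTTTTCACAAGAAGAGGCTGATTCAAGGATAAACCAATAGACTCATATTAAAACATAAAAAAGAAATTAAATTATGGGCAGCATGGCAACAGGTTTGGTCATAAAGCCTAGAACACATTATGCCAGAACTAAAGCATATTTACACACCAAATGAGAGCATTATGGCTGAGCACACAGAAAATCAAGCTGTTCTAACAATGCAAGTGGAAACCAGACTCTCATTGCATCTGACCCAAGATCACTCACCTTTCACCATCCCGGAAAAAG
On both strands together, this stretch held 1 match each to CCAAT, to the E-box CAGATG, and to GTTGCC, a half-site of RFX factors. Such matches were found in 35.8%, 26.8%, and 12.1% of 114758 distal open regions over windows of the same length, and they describe letters, not binding.

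Within Npy1r, a region at chr8:66697408-66697848, 436 bp past the TSS and overlapping an exon, had a peak in both delta libraries, at percentiles 70.9 and 24.1, and in beta 2, at 74.0. Neither alpha library had one. It was thereby the 1 open region in the windows called for every delta replicate and no alpha replicate, against 5.13% of all open regions called for delta over alpha cells. Its 3 libraries were all of lane 7, so cell type and lane cannot be told apart here.

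**Figure D2:**
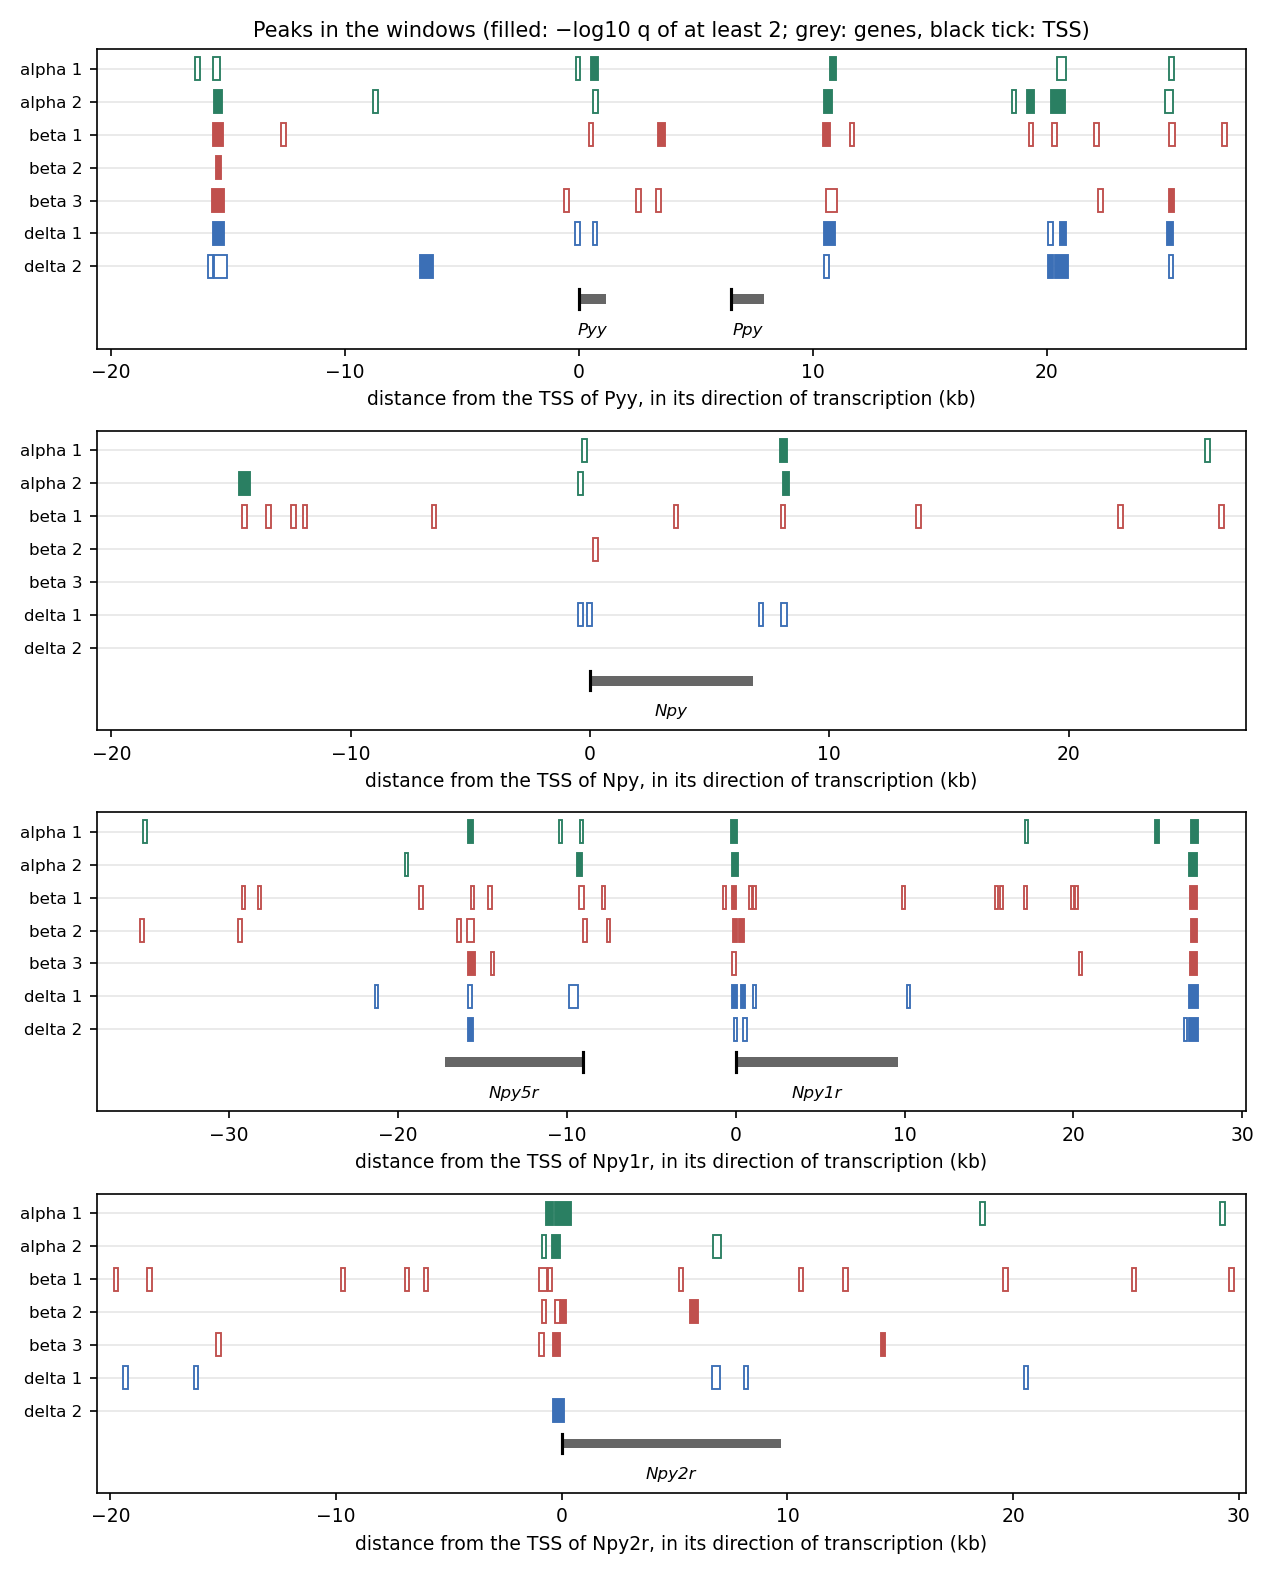
Peaks of 7 libraries (rows) in the windows of Ppy and Pyy, Npy, Npy5r and Npy1r, and Npy2r, against the distance in kb from the TSS of 1 gene in its direction of transcription. Each box is a peak, filled where −log10 q is at least 2. Peaks of all 7 libraries line up at the Npy1r TSS, 27 kb past it, and 15 kb upstream of Pyy.

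Npy5r, a receptor known for feeding control in the hypothalamus, lies at chr8:66679965-66688128 on the minus strand (ENSMUSG00000044014.9). It is read away from Npy1r, with 9064 bp between the start sites, so the windows overlap and share 6 open regions. Its TSS peak had percentiles of 23.9 and 69.5 in alpha cells, 90.9 and 53.8 in beta 1 and beta 2, and 65.1 in delta 1, and was absent from beta 3 and delta 2. Only alpha 2 reached a −log10 q of 2. Every cell type thus held a low or missing value, and their ranges overlapped. An exonic region at chr8:66681297-66681742 was called in 6 libraries, all but alpha 2, and passed that threshold in alpha 1, beta 3, and delta 2. Its highest fold enrichment was 7.14, in delta 2, and its lowest 1.80, in beta 1. An intronic region at chr8:66682554-66682882 had weak peaks in beta 1 and beta 3 only, at 48.1 and 18.5.

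Npy2r, the receptor that prefers the truncated form of peptide YY, lies at chr3:82538383-82548084 on the minus strand (ENSMUSG00000028004.12). The strongest peak of its window ranked at 76.9 and 65.1 in alpha cells, 90.9, 83.0, and 80.2 in beta cells, and 65.1 and 49.8 in delta cells. By this rank the beta libraries were above all others, and the lower alpha value lay above the higher delta value only beyond the rounding shown. A rank depends on how long a list is and how many weak peaks it holds, and beta 1 had the longest list, so the order does not compare accessibility itself. Means were 71.0 ± 8.37 in alpha cells (SD, n = 2), 84.7 ± 5.52 in beta cells (n = 3), and 57.4 ± 10.8 in delta cells (n = 2). The exact permutation test over 210 assignments of the libraries, without direction, gave p = 0.0286, and the Benjamini-Hochberg adjusted p over 21938 genes was 1. Of all genes, 3.41% had an unadjusted p under 0.05 for this measure, and among the 6 members Npy2r was the only one. Within lane 7, both beta libraries (83.0 and 80.2) were above both delta libraries (65.1 and 49.8), and within lane 6, beta 1 (90.9) was above both alpha libraries. The exact p became 0.486 with peaks past a −log10 q of 2 and 0.276 with the 50000 strongest peaks of each list. With a flank of 50 kb the exact permutation p was 0.0571, and with a flank of 5 kb 0.00952. The exact permutation p was 0.0167 without delta 1, 0.05 without alpha 1, 0.0667 without alpha 2, and 0.117 without delta 2. Without any 1 of the beta libraries it was 0.0667, the smallest exact p that 3 groups of 2 allow, so that these settings could not pass 0.05.

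Fold enrichment did not keep this order. At the Npy2r TSS it was 4.82 and 4.0 in alpha cells, 2.70, 5.22, and 4.82 in beta cells, and 4.23 in delta 2. Delta 1 had no peak there, and its strongest peak lay elsewhere in the window. Beta 1, which had the highest percentile, had the lowest fold enrichment and the only peak below a −log10 q of 2, at 1.10. Percentile and fold enrichment thus ordered the libraries differently. Apart from the TSS, the window held 1 other open region, at chr3:82541051-82541418, with peaks in alpha 2 and delta 1.

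The Npy2r promoter is shown for this difference between ranks. The 250 bases before the TSS, chr3:82548085-82548334 on the minus strand of GRCm38.p6, have in capitals the 164 bases under a peak in 5 libraries, the most at any base.
Npy2r promoter: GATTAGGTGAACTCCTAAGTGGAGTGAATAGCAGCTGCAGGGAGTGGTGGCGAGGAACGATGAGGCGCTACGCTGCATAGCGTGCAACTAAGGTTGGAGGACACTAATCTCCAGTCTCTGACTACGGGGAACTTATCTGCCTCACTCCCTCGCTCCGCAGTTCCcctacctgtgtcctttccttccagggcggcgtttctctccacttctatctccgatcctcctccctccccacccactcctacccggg
A GC box, GGGCGG, starts at −63 from the TSS, outside the capitals, and 39.0% of all promoters hold this motif.

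**Figure D3:**
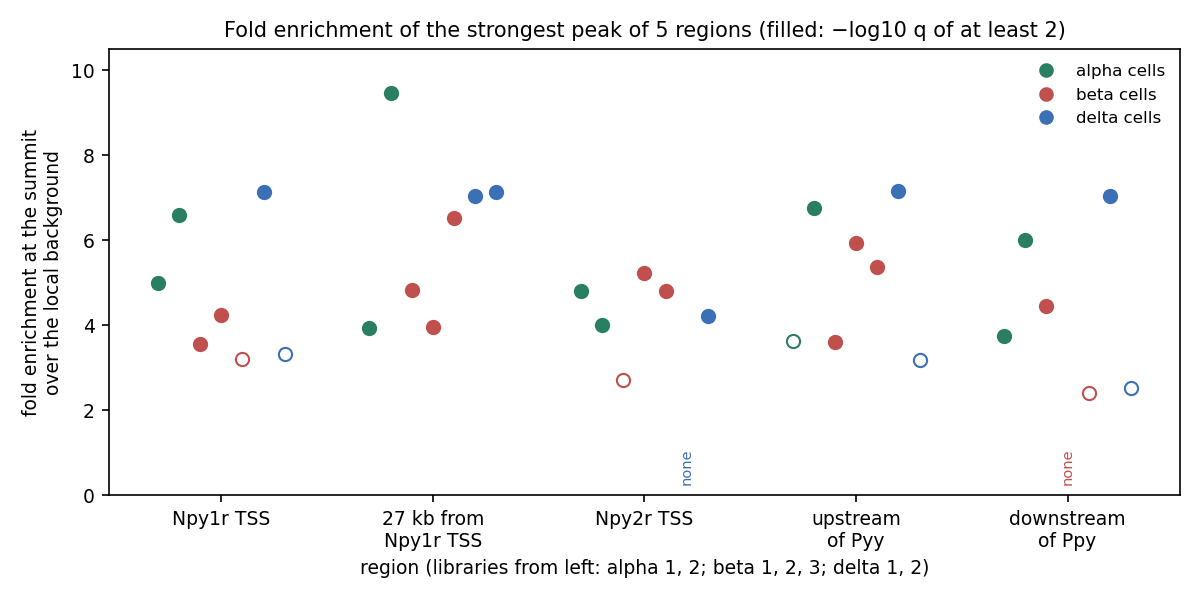
Fold enrichment at the summit over the local background (vertical axis) of the strongest peak of 5 regions in each library, with filled points for a −log10 q of at least 2. All 7 points of the region 27 kb from the Npy1r TSS are filled, and at the other 4 regions open points or missing peaks occur.

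Ppy, the gene of pancreatic polypeptide itself, lies at chr11:102099930-102101319 on the minus strand (ENSMUSG00000017316.13). None of the 7 libraries had a peak within 1 kb of its TSS, as for 17.3% of protein-coding genes. Within 3 kb of the TSS, 1 library had a peak. Its promoter is shown as the 1 promoter of the family with no peak at all, chr11:102101320-102101569 on the minus strand of GRCm38.p6, with the TATA box TATAAA in capitals at −31 from the TSS.
Ppy promoter: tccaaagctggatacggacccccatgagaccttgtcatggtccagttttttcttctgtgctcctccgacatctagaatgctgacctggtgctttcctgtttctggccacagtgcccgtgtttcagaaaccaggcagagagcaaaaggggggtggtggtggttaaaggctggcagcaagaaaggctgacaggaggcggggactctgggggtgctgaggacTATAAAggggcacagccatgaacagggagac
TATAAA was found in 11.5% of promoters on either strand. The Maf half-site TGCTGAC occurred once, at −173 from the TSS, and in 3.28% of promoters.

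Chromatin around Ppy was nevertheless called open. An intergenic region at chr11:102096812-102097380, 4223 bp past the TSS and so downstream of this short gene, had peaks in 6 libraries, all but beta 2. It ranked at 65.6 and 79.7 in alpha cells, 97.2 and 9.75 in beta 1 and beta 3, and 86.8 and 8.61 in delta cells. Fold enrichment ranged from 2.41 in beta 3 to 7.04 in delta 1, and 4 libraries passed a −log10 q of 2. High and low ranks stood side by side in beta and in delta cells, so the cell types overlapped. From this region, the 300 bases chr11:102097016-102097315, placed around the bases most libraries share, are written on the minus strand with the 141 bases under a peak in 5 libraries in capitals.
Ppy downstream region: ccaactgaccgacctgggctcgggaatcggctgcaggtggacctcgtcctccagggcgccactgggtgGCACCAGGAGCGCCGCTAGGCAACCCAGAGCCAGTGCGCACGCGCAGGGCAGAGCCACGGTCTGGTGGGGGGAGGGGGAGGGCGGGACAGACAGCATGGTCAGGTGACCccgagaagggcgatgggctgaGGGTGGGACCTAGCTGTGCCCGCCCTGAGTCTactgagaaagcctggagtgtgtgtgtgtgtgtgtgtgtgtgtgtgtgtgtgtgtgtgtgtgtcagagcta
It held 2 matches to GGGCGG, found in 7.11% of distal open regions, and 1 to GTTGCC. Between Ppy and Pyy, a region at chr11:102104144-102104528 had peaks in beta 1 at percentile 96.1 and in beta 3 at 27.9, and in no alpha or delta library. Beta 2 lacked it as well.

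Pyy, the gene of peptide YY, lies 5356 bp from Ppy at chr11:102106676-102107832 on the same strand (ENSMUSG00000017311.15). Its TSS peak ranked at 61.4 and 36.6 in alpha cells, 48.1 and 9.75 in beta 1 and beta 3, and 37.8 in delta 1, with none in beta 2 and delta 2. Only the alpha 1 peak passed a −log10 q of 2, at 2.16. Both alpha libraries had the peak, but beta 1 and delta 1 ranked above alpha 2, so the ranges of the ranks overlapped. The mean percentiles were 49.0 ± 17.6 in alpha cells (SD, n = 2), 19.3 ± 25.4 in beta cells (n = 3), and 18.9 ± 26.8 in delta cells (n = 2). Fold enrichment ordered the peaks differently, with 3.73 and 2.93 in alpha cells, 1.80 and 2.41 in beta 1 and beta 3, and 2.87 in delta 1. By fold both alpha libraries were above beta 1, beta 3, and delta 1, alpha 2 only narrowly above delta 1. The region of highest mean percentile in the Pyy window, 73.8, was at chr11:102122887-102123688, at −15455 bp from its TSS, next to the pseudogene Gm11585. It had a peak in all 7 libraries, with percentiles of 60.0 and 82.5 in alpha cells, 96.1, 88.9, and 82.8 in beta cells, and 87.2 and 18.9 in delta cells, and 5 passed a −log10 q of 2. In alpha 1, beta 1, and delta 2 other regions of the window ranked higher. Of the other open regions, 4 lie within Mpp2, the neighbouring gene, and 2 of them within 1 kb of its TSS. The one at chr11:102082362-102082780 was called in 6 libraries, all but beta 2, and had the highest mean percentile of the Ppy window, 52.7, against 49.7 for the region downstream of Ppy. The latter ranked higher in both alpha libraries, beta 1, and delta 1 and lower in beta 3 and delta 2.

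Npy, the gene of neuropeptide Y, lies at chr6:49822710-49829507 on the plus strand (ENSMUSG00000029819.6) and had the least covered window of the 6. Peaks covered 1.42% of its window on average over the libraries, more than in 23.1% of genes, and the median over genes was 2.05%. Its TSS peak ranked at 42.4 and 36.6 in alpha cells, 53.8 in beta 2, and 65.1 in delta 1, was absent from the other 3 libraries, and passed a −log10 q of 2 in none. The libraries without a peak were beta 1, beta 3, and delta 2, and the highest value was that of delta 1, so the ranges overlapped. Beta 3 and delta 2 had no peak in the whole window. A region just upstream, chr6:49822220-49822573, had peaks in both alpha libraries and delta 1 and in no beta library, the 1 open region of the windows called for alpha over beta cells. The peak of beta 2 lay on the other side of the TSS. It is shown as the 300 bases chr6:49822274-49822573 on the plus strand, with the 46 bases shared by all 3 libraries in capitals.
Npy upstream region: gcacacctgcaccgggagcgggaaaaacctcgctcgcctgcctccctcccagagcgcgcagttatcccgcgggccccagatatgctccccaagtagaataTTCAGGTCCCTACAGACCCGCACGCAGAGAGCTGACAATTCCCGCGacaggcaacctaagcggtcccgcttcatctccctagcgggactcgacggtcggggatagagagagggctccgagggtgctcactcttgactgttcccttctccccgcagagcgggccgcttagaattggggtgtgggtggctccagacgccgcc
A second region, at chr6:49830671-49831020, 8135 bp past the TSS, had peaks in both alpha libraries, beta 1, and delta 1. Both alpha peaks passed a −log10 q of 2, at 2.16 and 2.27, and the other peaks did not.

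**Figure D4:**
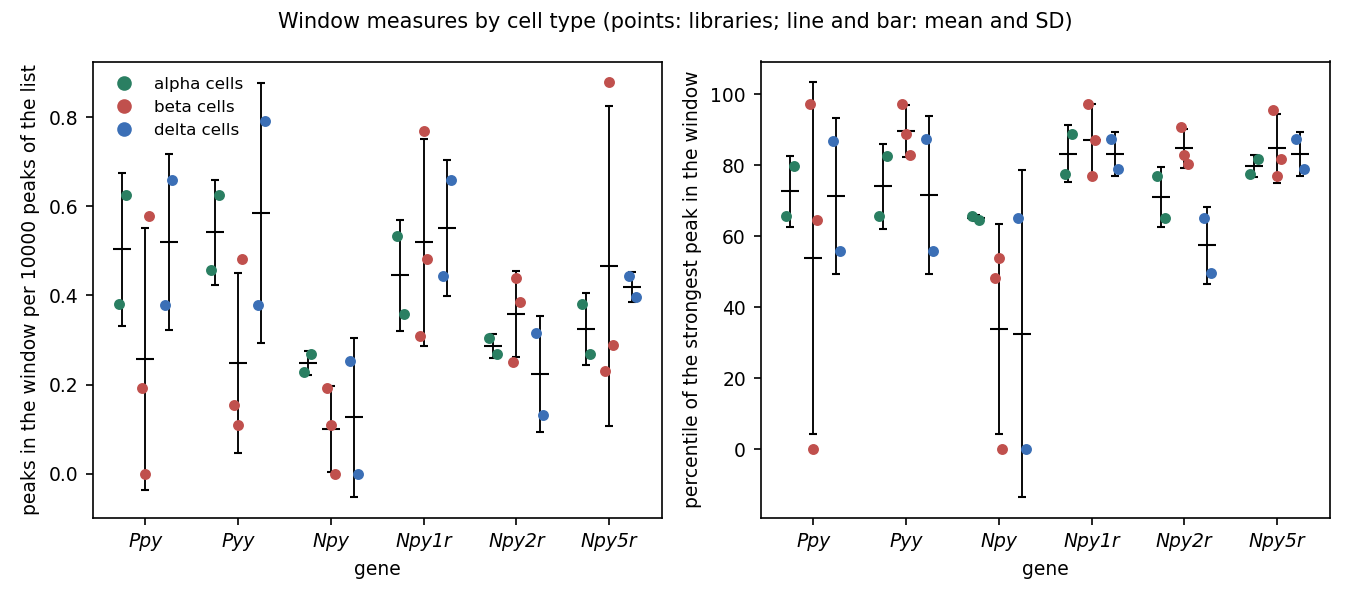
Peaks in the window per 10000 peaks of the list (left) and percentile of the strongest peak in the window (right) for 6 genes. Points are libraries, coloured by cell type, and lines with bars are the mean and SD of 2 alpha, 3 beta, and 2 delta libraries. All 3 cell types separate only for the right-hand measure of Npy2r, and there alpha 2, at 65.09, lies only just above delta 1, at 65.08.

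Over the 6 genes, 5 members had a TSS peak in at least 2 alpha libraries, 4 in beta libraries, and 1 in delta libraries. The same rule called 56.8%, 56.1%, and 54.1% of protein-coding genes. With peaks past a −log10 q of 2 the members were 2, 2, and 0, where 51.5%, 41.4%, and 48.4% of genes were called. The rule asks for both libraries in alpha and delta cells and for 2 of 3 in beta cells, and delta 2 had a TSS peak for 2 members against 4 in delta 1. Without delta 2, 4 members had a TSS peak in the remaining delta library, without delta 1 there were 2, and without beta 1 the beta count fell from 4 to 2.

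By the number of peaks in a window, no member had all 3 cell types apart. For Npy, both alpha libraries, at 0.229 and 0.268 peaks per 10000, were above the highest beta library, at 0.193. Delta cells, at 0.253 and 0, overlapped both. This order of alpha over beta cells held only after scaling by list length. Unscaled, the Npy window held 3 peaks in each alpha library, 10, 1, and 0 in the beta libraries, and 4 and 0 in the delta libraries. Npy1r had 0.446 ± 0.125 peaks per 10000 in alpha cells (SD, n = 2), 0.519 ± 0.232 in beta cells (n = 3), and 0.551 ± 0.153 in delta cells (n = 2). Ppy had 0.503 ± 0.173, 0.257 ± 0.294, and 0.519 ± 0.198, in the same order, with no peak at all in beta 2. By the exact permutation test the p-values of the 6 members lay between 0.276 for Pyy and 0.952 for Npy5r, and all adjusted p were 1. Among all genes 4.42% had an unadjusted p under 0.05 for this measure and 0 passed an adjusted 0.05, for either measure. Pairs of cell types were not tested, since 2 against 3 libraries cannot go below 0.1 and 2 against 2 not below 0.333.

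The 6 windows held 85 merged regions, of which 23 were open and 62 came from a single library, 33 of these from beta 1. Peaks were present in 15 and 14 of the 23 open regions in alpha cells, 18, 8, and 10 in beta cells, and 15 and 9 in delta cells. Of all open regions the same libraries had a peak in 50.3% and 51.1%, in 72.7%, 34.1%, and 38.9%, and in 58.7% and 41.9%, so beta 1 led and beta 2 was lowest in both. In at least 2 replicates, 11 open regions were found in alpha cells, 11 in beta cells, and 8 in delta cells. This rule is easier to meet in beta cells, with 2 of 3 libraries. No share of all open regions under it is given here, so these counts are not compared between cell types. A peak in 2 or more replicates of one type and none of the other was found for 1 region in alpha over beta cells, where 5.41% of all open regions were called, and for 3 in beta over alpha cells, where 14.8% were. For alpha over delta cells there were 0 regions (background 5.38%), for beta over delta cells 3 (13.2%), and for delta over beta cells 0 (4.85%). The 3 beta regions were the same in both comparisons, the intergenic one between Ppy and Pyy, the intron of Npy5r, and an exon of Mpp2. All 3 rested on beta 1 and beta 3, and none had a peak in beta 2. The beta over delta and delta over beta counts together were 0 without beta 3, 1 without beta 1, and 7 without delta 2. Between alpha and beta cells, 4 regions in both directions became 1 without beta 3. Between alpha and delta cells, 1 became 5 without alpha 1, alpha 2, or delta 1, and 3 without delta 2. A cell type left with 1 library was called from that library alone. With 2 or 3 libraries per group these calls are a description with no test.

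Other genes of the pathway were read at the TSS in the same way. Of 13 genes, 11 had a TSS peak in at least 2 alpha libraries, 11 in beta, and 10 in delta cells, beside the 56.8%, 56.1%, and 54.1% of all genes, and 10 had one in all 7, beside 41.5%. The difference from the 6 members was not tested. The 10 genes were all processing or G protein genes, and neither of the other 2 receptors was among them. They were Pcsk1, Pcsk2, and Cpe, which cut the precursors, Pam, which amidates the peptides, Dpp4, which trims peptide YY and neuropeptide Y, and the G protein genes Gnai1, Gnai2, Gnai3, Gnao1, and Gnaz. Pam ranked between 97.0 and 99.6 over the libraries, and Dpp4 between 50.1 and 95.0. Npy4r, the receptor that prefers pancreatic polypeptide, had peaks in 6 libraries, with percentiles of 78.1 and 86.8 in alpha cells, 48.1, 53.8, and 71.8 in beta cells, and 17.9 in delta 2, and 3 of them passed a −log10 q of 2. Delta 1 had none, as at Npy2r. Npy6r, a further receptor of the mouse, had no TSS peak in any library, and Fap, a relative of Dpp4, had 1 in beta 1.

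For the 5 members with a TSS peak, all but Ppy, the genes nearest in TSS pattern were found by the Euclidean distance between the 7 percentiles. They were Rasal1 (10.02 percentile points) and Aatk (25.8) for Pyy, and Scrn1 (11.4) and Vps13c (19.2) for Npy1r. For Npy2r they were Them7 (29.8) and Lrrc7 (32.7), for Npy5r Pitx3 (25.4) and Lrfn3 (26.1), and for Npy Dio2 (31.3) and Frmpd3 (36.0). A MACS2 list holds few distinct −log10 p values, from 2255 in beta 1 to 6949 in delta 1, so equal percentiles recur among weak peaks.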

How the data were processed

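Peaks of 7 ATAC-Seq libraries, 2 alpha, 3 beta, and 2 delta, were analysed by their deposited labels. The deposited lists are the MACS2 calls of the authors, 1 list for each library. Behind them stand single-end reads mapped to GRCm38 (mm10) by Bowtie 2 with no mitochondrial sequence, after trimming in Trimmomatic. A blacklist filter and the flagging of duplicates with Picard preceded the calls. Tool versions and the MACS2 threshold are not given in the sources used here. The fold enrichment, which is the summit signal over that of the surrounding background, and the −log10 p and −log10 q values were made by the authors with MACS2, as was the score of each peak, which was not used in a result.

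Rows that repeat an interval were counted once. Gene bodies come from GENCODE vM21, windows add 20 kb on each side, and a TSS peak lies no more than 1 kb from a gene's 5′ end. Regions were formed by merging the peaks of all lists wherever they shared 1 bp or more. The number of peaks per 10000 and the percentile of the strongest peak in a window were compared over 210 assignments of the libraries by exact permutation, with the sum of squares between cell type means as statistic, for 21938 protein-coding genes with Benjamini-Hochberg adjustment. With 7 libraries the smallest p is 0.00952. The labels call the libraries biological replicates and give no further origin, so p-values measure the spread between pools. Per the study's methods, cell types were compared within the same animals. Alpha cells came from Gcg-Cre mice and delta cells from Sst-Cre mice. A beta library may thus share mice with an alpha or a delta library, but alpha and delta libraries cannot share mice. The permutation treats the libraries as independent, and no pairing by mouse was made here. Sex, cell number, and read depth are recorded by the study for each library but not in the labels, and none of them entered a test. The authors' test on reads per region could not be run on peak lists. All 32851 promoters of the RefSeq table were identical to the genome used here, and all 6 members were matched. Shares of promoters or regions with a motif count both strands. The 9 patterns searched were TATAAA for the TATA-binding protein, CCAAT for nuclear factor Y, GGGCGG for GC boxes, TAATTA for homeodomain factors, CAGATG for E-boxes, TGTTTAC for forkhead factors, TGCTGAC for Maf factors, GTTGCC for RFX factors, and the CTCF core by its name.

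The 6 members named in the text, the pathway and marker lists, the likeness rule (the nearest 2 genes), and the motifs were chosen with earlier results of these data known. Regions named are those at the TSS, those of highest mean percentile, and those called for 1 cell type, with neighbours added after their values were seen. As alternatives, only peaks past a −log10 q of 2 or the 50000 strongest of each list were kept, the flanks were set to 5 or 50 kb, and TSS peaks were sought within 3 kb or at the start of every transcript. Regions had to be covered to at least 0.5, to occur in 3 libraries, or to be called by all replicates. Counts were left unscaled or replaced by the percent of the window covered, only genes with a peak in each cell type were tested, replicate numbers served as a block, and libraries were left out in turn. Scripts were tested on simulated lists. Python 3.11.15 with numpy 2.4.6, pandas 2.3.3, and matplotlib 3.10.9 was used.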

Additional observations from a re-analysis of the deposited data

How the results depend on the processing

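Of 445 recomputed values, 73 moved. The others include p-value calls whose outcome the design fixed, under the replicate block and without a beta library, so their number is no measure of stability. The lowest adjusted p of a member under any setting was 0.496, from the exact permutation tests. With peaks of −log10 q of at least 2, members with an unadjusted p under 0.05 for the strongest peak fell from 1 to 0. Members with TSS peaks in 2 replicates then numbered 2 for alpha, 2 for beta, and 0 for delta cells, open regions numbered 10, and the regions selective between alpha and beta cells 1 and between beta and delta cells 1. With 50000 peaks per list these values were 0, 2, 2, 0, 11, 2, and 1. A flank of 5 kb left 14 open regions. A flank of 50 kb gave 0 members for the strongest peak and 2 regions selective between alpha and delta cells. Requiring every replicate left 1 region between alpha and beta cells and 0 between beta and delta cells, and requiring 3 libraries left 13 open regions. The causes of these shifts were not tested.

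Leaving out 1 library gave 0 to 1 member for the strongest peak (without a beta library the smallest exact p is 0.0667, so 0 was fixed by the design), 5 to 5 members with a TSS peak for alpha, 2 to 4 for beta, and 1 to 4 for delta cells, 16 to 23 open regions, and 1 to 6, 1 to 5, and 0 to 7 selective regions between alpha and beta, alpha and delta, and beta and delta cells. A cell type left with 1 library was called from it alone. Between alpha and delta cells there were 5 without alpha 1, alpha 2, or delta 1 and 3 without delta 2, against 1 with all libraries. Between alpha and beta cells there was 1 without beta 3, against 4. Between beta and delta cells, 3 with all libraries became 0 without beta 3, 1 without beta 1, 5 without alpha 2, and 7 without delta 2. Same-numbered libraries correlated between −0.107 and 0.512 over 6 pairs, which does not settle whether the numbers pair the samples. The replicate block over 36 assignments gave 0 members for the strongest peak. Its smallest exact p is 0.0556, so no member could pass 0.05 under it and the block says nothing about stability.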
